A study of Homo sapiens with 6 samples.

Results

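The proteasome genes were the rows of the expression table whose symbol begins with PSMA, PSMB, PSMC, PSMD, PSME, PSMF or PSMG followed by a digit. The rule, which used no measured value, found 50 rows of 20442. Of these, 48 encode proteasome subunits, regulators or assembly factors, and 2, PSMC3IP and PSME3IP1, matched by symbol only: PSMC3IP encodes a recombination cofactor and PSME3IP1 a protein that binds the activator PSME3. A mean of at least 1 FPKM (fragments mapped to a gene, scaled by transcript length and by library size) over the 6 libraries was reached by 48 rows, and these were tested. The other 2, PSMA8 and PSMB11, which encode the testis and thymus forms of core subunits, had at most 0.15 and 0.06 FPKM in any library.

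The proteasome degrades proteins that carry ubiquitin chains. Its core particle is a barrel of alpha and beta rings, with the cutting sites on the beta subunits PSMB5, PSMB6 and PSMB7 inside. A cap of ATPases (PSMC) and non-ATPase subunits (PSMD) binds, unfolds and feeds in the substrate, and other activators (PSME) can take its place. Chaperones (PSMG for the core, PSMD5, PSMD9 and PSMD10 for the cap) help to assemble the parts and then leave. Interferon gamma induces the immunoproteasome subunits PSMB8, PSMB9 and PSMB10 and the activator subunits PSME1 and PSME2, which favour peptides for display on MHC class I molecules. When proteasome activity is short, the transcription factor encoded by NFE2L1 raises the transcription of subunit genes.

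RNA-seq was performed on HK-2, an established human cell line derived from the kidney's proximal tubule, with 3 libraries labelled HNRNPF overexpression and 3 labelled control. Both groups had been given a lentivirus, carrying HNRNPF or a control. The study cultured such cells in parallel wells for 72 h with 30 mM glucose or with 30 mM mannitol as the osmotic control, and the labels do not say which medium each library had. The study describes its libraries as biological replicates, but no label says that those of a group are separate cultures, so p-values here reflect the variation among these 6 libraries.

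HNRNPF itself went against the labels. With labelled overexpression its level was 322.83, 349.84 and 320.8 FPKM, and with control 555.18, 563.36 and 588.68 FPKM, 1.72-fold lower in the libraries labelled overexpression (limma adjusted p = 0.000107). By RT-qPCR, the paper reports HNRNPF RNA as raised in its overexpressing HK-2 cells in high glucose. The cause of this difference was not tested. All directions in what follows are given by label. Of 12 epithelial and proximal tubule markers, KRT8 (with labelled overexpression 475.54 to 505.49 FPKM, with control 491.89 to 534.79 FPKM), KRT18, KRT19, EPCAM and GGT1 were expressed and MME was low, while CDH1, ANPEP, LRP2, CUBN, SLC34A1 and AQP1 lay at or near 0. By label GGT1 was higher (log2 fold change 0.47, limma adjusted p = 0.00576) and KRT18 lower (-0.20, 0.0233), and the part of these markers in the results was not tested. Of 10 markers of other cell types, 8 lay at or near 0. The exceptions were CD68, a lysosomal protein of macrophages and other cells (with labelled overexpression 189.68 to 212.44 FPKM, with control 163.36 to 176.71 FPKM), and COL1A1, a collagen (7.21 to 7.58 FPKM and 3.75 to 5.43 FPKM). By label COL1A1 was higher (log2 fold change 0.64, limma adjusted p = 0.0116), and CD68 did not pass (0.20, 0.0534). In bulk RNA, fewer cells of a type and less RNA per cell cannot be told apart.

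Promoter sequence was available for 44 of the 50 genes in RefSeq (GRCh38.p14), as 300 bases from 250 before to 50 after each annotated start. The motifs searched, on either strand, were sites of factors known to act on genes of this family. The interferon regulatory factor (IRF) element was taken as GAAANNGAAA (TTTCNNTTTC on the other strand) and was found in 7 of the 44 genes (15.91%). It was found in 4.38% of 27305 genes and in 3.79% of the 10126 of these that were tested for expression. The core of the antioxidant response element, which NFE2L1 and its relatives bind, was taken as TGACNNNGC (GCNNNGTCA). This core was found in 15 of 44 (34.09%), against 16.06% of all genes and 19.34% of the tested ones. In 5 of the 7 genes the IRF element had the same 10 letters, GAAAGCGAAA (or TTTCGCTTTC on the other strand), a form picked out after the matches were seen. That form was present in 34 of all 27305 genes (0.12%) and in 0.25% of the tested ones. They are shown because these 5 comprise PSME1 and PSME2, which were lower, the immunoproteasome genes PSMB8 and PSMB10, which did not pass, and the chaperone gene PSMG4, which was lower. The other genes with the IRF element, PSMB4 and PSMA4, did not pass and are not shown. The element is in capitals, 5′ to 3′ on the strand of the gene.
PSME1, chr14:24136189-24136218, plus strand: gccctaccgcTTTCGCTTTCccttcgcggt
PSME2, chr14:24146619-24146648, minus strand: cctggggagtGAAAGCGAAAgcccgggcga
PSMB8, chr6:32844032-32844061, minus strand: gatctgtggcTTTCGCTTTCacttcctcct
PSMB10, chr16:67936852-67936881, minus strand: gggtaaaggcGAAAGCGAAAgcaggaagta
PSMG4, chr6:3258904-3258933, plus strand: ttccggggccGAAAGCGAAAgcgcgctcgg
The first base of the element lay 5 bases after the annotated start of PSME1 and 28 before that of PSME2, and the PSMB8 and PSMG4 matches belong to a start other than the gene's first. The antioxidant response core was found in 6 of the 12 genes that passed the test below, of which the 4 outside the PSME pair are shown with the core in capitals. The core was also found in PSME4, PSMD1, PSMB9, PSMD5, PSMA4, PSMB3, PSMC5, PSMD12 and PSMC4, which did not pass and are not shown. The PSMG1 match too belongs to a start other than the first, and PSMD9 and PSMD3 each held a second match, which is not printed.
PSMG2, chr18:12658689-12658717, plus strand: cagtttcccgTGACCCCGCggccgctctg
PSMG1, chr21:39183616-39183644, minus strand: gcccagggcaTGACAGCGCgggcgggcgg
PSMD9, chr12:121888678-121888706, plus strand: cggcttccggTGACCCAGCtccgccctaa
PSMD3, chr17:39980760-39980788, plus strand: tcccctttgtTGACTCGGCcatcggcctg
These genes moved in both directions, PSMD3 higher and the other 3 lower. A match describes the letters only and is neither a shown binding site nor a cause.

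The 31 constitutive subunits of the core and the cap were abundant, with a median of 245 FPKM (76.3 to 679). The 7 chaperones under the symbol rule had a median of 66.8 FPKM (30.8 to 106), so the ranges overlapped. POMP, a core chaperone outside the rule, averaged 315 FPKM. Per length, the highest gene was PSMA7, of the alpha ring, with 715.89, 617.64 and 691.13 FPKM in the libraries labelled overexpression and 687.97, 685.84 and 678.12 FPKM in control. The lowest of the tested genes was PSME4, which encodes an activator, with 11.56, 10.77 and 10.94 FPKM against 12.63, 12.56 and 10.82 FPKM in control. Averaged over the 6 libraries, the alpha ring genes lay between 176 and 679 FPKM, the beta ring genes between 277 and 508, the ATPases between 85.7 and 176, the other cap subunits between 76.3 and 398, the immunoproteasome genes between 58.8 and 91.6 and the core chaperones between 31.7 and 87.8. All members together summed to between 8623 and 9534 FPKM in the libraries labelled overexpression and between 8926 and 9762 FPKM in control, which was 1.02% to 1.06% of all FPKM in every library.

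**Figure D1:**
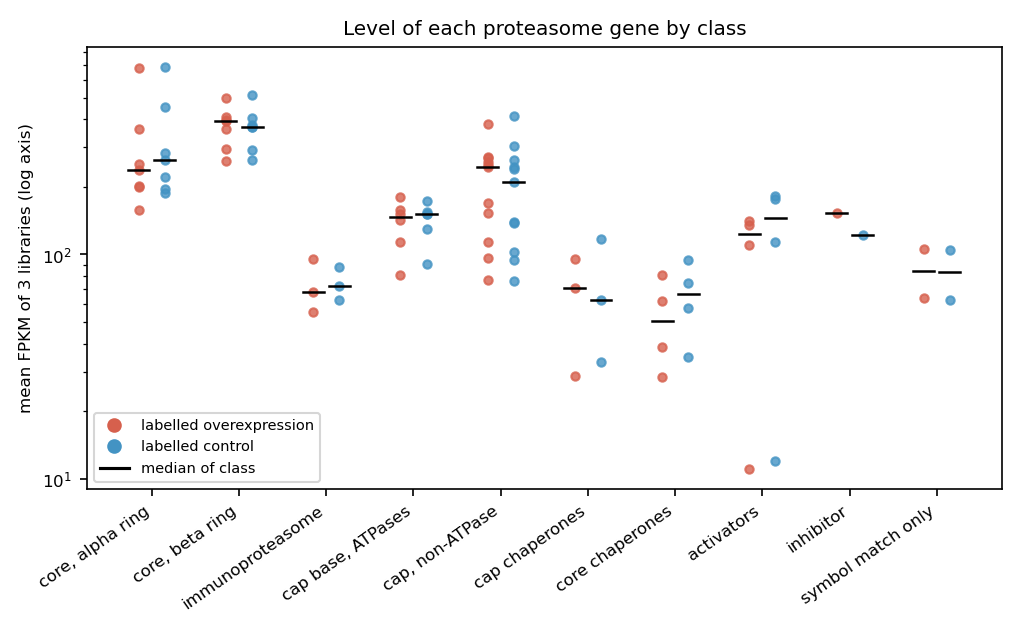
Mean FPKM of each tested gene over 3 libraries, on a log axis, by class, with the libraries labelled overexpression on the left of each pair, those labelled control on the right, and a line at the median of the class. The beta ring genes all lie above 250 FPKM in both groups, while the core chaperones all lie below 100 FPKM.

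The comparison of the labelled groups showed small differences in both directions and no general shift. Of the 48 tested rows, 3 were higher (PSMD3, PSMF1 and PSMD13) and 9 were lower (PSMG2, PSME2, PSME1, PSMA6, PSMA3, PSMD9, PSMG4, PSMG1 and PSMC2) in the libraries labelled overexpression at a limma adjusted p under 0.05. These 12 make 25.0%, against 24.4% of all 12461 genes tested (11.3% higher and 13.1% lower), so the share was near the background and is no result about the family. The median log2 fold change was -0.04 over the members and -0.01 over all genes, and the interquartile range ran from -0.17 to 0.05 for members and from -0.18 to 0.17 for all genes. No member changed 2-fold. A change over 0.5 on the log2 scale in either direction was reached by 1 member, PSMG2 (2.08%), against 4.55% of all tested genes with a mean of at least 10 FPKM. The groups did not overlap in 19 members, 5 higher and 14 lower (over all genes, 42.1% did not overlap, 19.6% higher and 22.5% lower).

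The split of the calls depended on scaling. With quantile scaling 5 members were higher and 8 lower, with TPM scaling 4 and 7, and after removal of a trend on expression, GC content and transcript length 12 and 8. With each library centred on the median of the 31 constitutive core and cap subunits, an alternative chosen after seeing the data, 1 was higher and 12 were lower. The share of all genes that passed in these fits is not given here, so these counts are no result about the family. PSMG2 (lower) and PSMD3 (higher) passed under all 20 alternatives run.

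**Figure D2:**
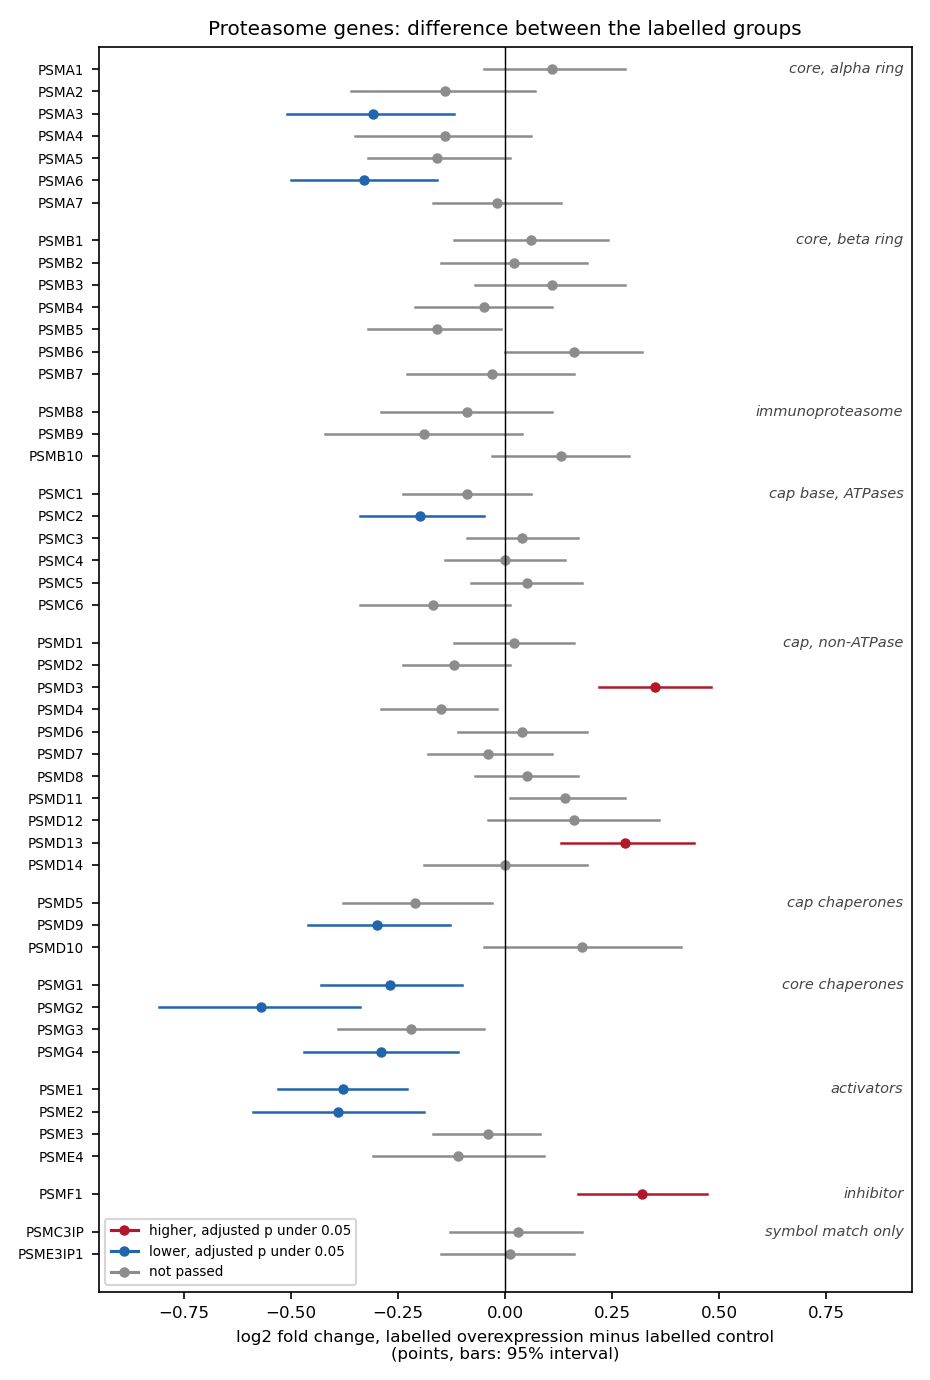
Log2 fold change (libraries labelled overexpression minus those labelled control) with its 95% interval for each tested gene, ordered by class, in red where higher, blue where lower and grey where the adjusted p did not pass. All 4 core chaperones and all 4 activators lie to the left of 0, while the beta ring genes lie between -0.16 and 0.16.

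In the alpha ring, which gates the entrance to the core, 2 of 7 genes were lower (28.6%, beside 13.1% of all genes tested) and none was higher. PSMA6 (gene ID 5687, chr14:35278558-35317493) had 373.31, 334.35 and 377.57 FPKM in the libraries labelled overexpression and 491.69, 455.27 and 419.79 FPKM in those labelled control. The groups did not overlap, and replicate 2 was the lowest of the libraries labelled overexpression and replicate 3 the lowest of control. The means were 362 ± 23.8 and 456 ± 36.0 FPKM (SD, n = 3 each), a log2 fold change of -0.33 (SE 0.076, limma adjusted p = 0.0138). PSMA3 (gene ID 5684, chr14:58244843-58272004) had 164.99, 141.17 and 165.83 FPKM against 210.07, 201.14 and 175.12 FPKM in control. These too did not overlap, with the same libraries lowest (log2 fold change -0.31, SE 0.087, limma adjusted p = 0.0293). The other 5 genes of the ring did not pass, with log2 fold changes of -0.16 to 0.11. Without control replicate 2 the limma adjusted p of PSMA6 was 0.0587 and that of PSMA3 was 0.109, and PSMA3 also missed without control replicate 1 (0.0973), overexpression replicate 2 (0.0904) or overexpression replicate 3 (0.0503). After removal of the GC, length and expression trend, PSMA3 had a log2 fold change of -0.06 (adjusted p = 0.274).

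None of the 7 genes of the constitutive beta ring passed. Among the catalytic ones, PSMB5, of the chymotrypsin-like site, had 277.48, 239.02 and 267.92 FPKM in the libraries labelled overexpression and 290.32, 303.56 and 282.76 FPKM in control. The groups did not overlap, but the difference missed the threshold (limma adjusted p = 0.112, log2 fold change -0.16, 95% interval -0.32 to -0.01). PSMB6, of the caspase-like site, had 310.57, 268.43 and 305.93 FPKM against 274.09, 265.74 and 251.55 FPKM in control, with overlap through replicate 2 of the libraries labelled overexpression (log2 fold change 0.16, limma adjusted p = 0.128). It passed as higher without that library (adjusted p = 0.0446), with TPM or quantile scaling, and after removal of the GC, length and expression trend. PSMB7, of the trypsin-like site, had 396.11, 319.97 and 374.05 FPKM against 389.4, 381.86 and 342.86 FPKM in control (log2 fold change -0.03, 95% interval -0.23 to 0.16). For PSMB1, PSMB2, PSMB3 and PSMB4, which carry no cutting site, the log2 fold changes were -0.05 to 0.11.

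The 3 immunoproteasome genes, which encode replacements for the catalytic subunits, did not pass either. PSMB8 had 72.61, 59.84 and 71.2 FPKM in the libraries labelled overexpression and 72.41, 77.46 and 66.36 FPKM in control (log2 fold change -0.09, 95% interval -0.29 to 0.11). PSMB9 had 61.86, 45.87 and 57.9 FPKM against 60.79, 63.63 and 63.03 FPKM in control (limma adjusted p = 0.193, log2 fold change -0.19, 95% interval -0.42 to 0.04). PSMB10 had 96.39, 87.39 and 103.51 FPKM against 86.95, 85.51 and 90.12 FPKM in control (log2 fold change 0.13, 95% interval -0.03 to 0.29). The groups overlapped in all 3 genes.

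Because both subunits of a pair compete for 1 place in the ring, the inducible share of each pair was computed within each library as a share of the summed FPKM. PSMB9 made 16.6%, 14.6% and 15.9% of PSMB9 plus PSMB6 in the libraries labelled overexpression, against 18.2%, 19.3% and 20.0% in control. These shares did not overlap, and the means were 15.7 ± 1.0% and 19.2 ± 0.95% (SD, n = 3 each, difference -3.5 points, two-sided exact permutation p = 0.1, adjusted 0.2 over 3 comparisons). With 3 libraries against 3, 0.1 is the smallest p this test can give. PSMB10 made 19.6%, 21.5% and 21.7% of PSMB10 plus PSMB7, against 18.3%, 18.3% and 20.8% in control, and PSMB8 made 20.7%, 20.0% and 21.0% of PSMB8 plus PSMB5, against 20.0%, 20.3% and 19.0% in control (exact permutation p = 0.2 in both). In those pairs the shares overlapped. RNA shares do not give the makeup of assembled particles.

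**Figure D3:**
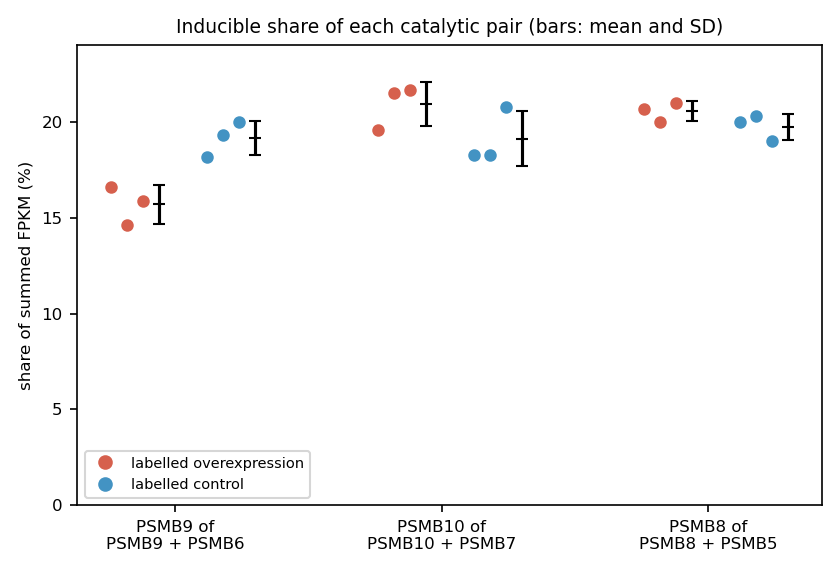
Share of the inducible subunit in the summed FPKM of each catalytic pair, in percent, for each library (points) with the mean and SD (bars), the libraries labelled overexpression on the left of each pair and those labelled control on the right. The PSMB9 share lies between 14.6% and 16.6% in the libraries labelled overexpression and between 18.2% and 20.0% in control, while the points of the other pairs overlap.

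In the cap, 1 of 6 ATPases was lower (16.7%) and 2 of 11 other subunits were higher (18.2%), shares near the 13.1% lower and 11.3% higher of all genes tested. PSMC2 (gene ID 5701, chr7:103347524-103369395), an ATPase of the base ring, had 114.66, 111.35 and 114.59 FPKM in the libraries labelled overexpression and 133.83, 136.09 and 120.85 FPKM in control. The groups did not overlap (log2 fold change -0.20, SE 0.063, limma adjusted p = 0.0486). That call sat at the threshold: it was kept in 7 of 20 alternatives, and with libraries left out singly it was kept only without control replicate 3, with adjusted p up to 0.199 without control replicate 2. The other 5 ATPases had log2 fold changes of -0.17 to 0.05.

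PSMD3 (gene ID 5709, chr17:39980807-39997959) and PSMD13 (gene ID 5719, chr11:236976-252984) encode subunits of the lid, the part of the cap that holds the deubiquitinase PSMD14. PSMD3 had 262.67, 278.25 and 262.93 FPKM in the libraries labelled overexpression and 205.93, 206.2 and 219.53 FPKM in control. All 3 of the first group lay above all 3 of control, and the means were 268 ± 8.92 and 211 ± 7.78 FPKM (SD, n = 3 each), a log2 fold change of 0.35 (SE 0.058, limma adjusted p = 0.004). PSMD13 had 185.99, 162.48 and 161.64 FPKM against 142.12, 140.72 and 135.26 FPKM in control (log2 fold change 0.28, SE 0.069, limma adjusted p = 0.0168). The groups did not overlap, and replicate 1 was the highest of the libraries labelled overexpression. Its call was lost without that library (adjusted p = 0.0548) and without control replicate 2 (0.0638). PSMD14 itself had a log2 fold change of 0.00 (95% interval -0.19 to 0.19), and PSMD4, a ubiquitin receptor of the cap, had -0.15 (limma adjusted p = 0.0957, 95% interval -0.29 to -0.02). PSMD4 passed as lower without control replicate 3 (adjusted p = 0.0454). The remaining 7 subunits had log2 fold changes of -0.12 to 0.16.

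The assembly factors held the largest single difference. All 4 core chaperone genes under the symbol rule had lower FPKM in every library labelled overexpression than in any control library. Non-overlap in this direction was found for 22.5% of all genes tested. Of the 4, 3 passed as lower (13.1% of all genes tested). PSMG2 (gene ID 56984, chr18:12658738-12725740), which pairs with PSMG1 to guide the alpha ring, had 41.59, 34.85 and 39.98 FPKM in the libraries labelled overexpression and 61.75, 63.15 and 49.11 FPKM in control. Control replicate 3 was the nearest to the other group. The means were 38.8 ± 3.52 and 58.0 ± 7.73 FPKM (SD, n = 3 each), which is 1.49-fold lower (log2 fold change -0.57, SE 0.11, limma adjusted p = 0.00589).

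PSMG1 (gene ID 8624, chr21:39174769-39183514) had 62.23, 59.7 and 63.66 FPKM in the libraries labelled overexpression and 80.85, 75.12 and 67.93 FPKM in control (log2 fold change -0.27, SE 0.074, limma adjusted p = 0.0282). PSMG4 (gene ID 389362, chr6:3254404-3268049), of the second chaperone pair, had 26.73, 27.1 and 31.83 FPKM against 34.01, 36.12 and 34.36 FPKM in control (log2 fold change -0.29, SE 0.081, limma adjusted p = 0.0297). Its partner PSMG3 had 90.18, 75.42 and 78.09 FPKM against 98.33, 92.25 and 92.51 FPKM in control (log2 fold change -0.22, limma adjusted p = 0.0608). PSMG3 did not pass, but it passed as lower in 4 of 20 alternatives, among them the fit without overexpression replicate 1 (adjusted p = 0.0252). With libraries left out singly, PSMG1 kept its call in 1 of 6 fits, missing without any of the libraries labelled overexpression (adjusted p of 0.0624 to 0.0864), control replicate 1 (0.0889) or control replicate 2 (0.103). PSMG4 kept it in 2, missing without overexpression replicate 1 (0.0939) or 2 (0.095) or control replicate 1 (0.0569) or 2 (0.118). After removal of the GC, length and expression trend, neither passed: PSMG1 had a log2 fold change of -0.12 (adjusted p = 0.0531) and PSMG4 of -0.21 (0.0832). In that fit PSMG3 passed as lower (-0.27, adjusted p = 0.0218) and PSMG2 stayed lower (-0.35, 0.00185).

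Of the 3 cap chaperones, PSMD9 (gene ID 5715, chr12:121888790-121918297) was lower, with 100.46, 85.45 and 99.82 FPKM in the libraries labelled overexpression and 114.64, 121.14 and 115.14 FPKM in control. The groups did not overlap (log2 fold change -0.30, SE 0.074, limma adjusted p = 0.0181), and the adjusted p was 0.0849 without control replicate 2. PSMD5 had 28.09, 30.8 and 26.91 FPKM against 35.66, 31.65 and 31.73 FPKM in control, with no overlap (log2 fold change -0.21, limma adjusted p = 0.0852). PSMD10, also known as gankyrin, differed in sign, with 76.79, 64.51 and 71.08 FPKM against 68.57, 66.79 and 52.79 FPKM in control (log2 fold change 0.18, limma adjusted p = 0.23). Over the 7 chaperones of core and cap under the symbol rule, 4 were lower (57.1%, beside 13.1% of all genes tested) and none higher. Their median log2 fold change was -0.27, beside 3 lower and 2 higher of 31 constitutive subunits, with a median of 0.00. The difference between the classes was not tested. Chaperones outside the rule did not go the same way. POMP, of the core, had a log2 fold change of -0.04 (limma adjusted p = 0.764). PAAF1, of the cap, had 0.24 (adjusted p = 0.102), with every library labelled overexpression above every control library.

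Among the activators, both subunits of the interferon-inducible ring were lower. PSME1 (gene ID 5720, chr14:24136194-24138962) had 148.01, 130.36 and 144.34 FPKM in the libraries labelled overexpression and 184.04, 189.21 and 175.94 FPKM in control. The means were 141 ± 9.31 and 183 ± 6.69 FPKM (SD, n = 3 each), which is 1.3-fold lower (log2 fold change -0.38, SE 0.066, limma adjusted p = 0.00481). PSME2 (gene ID 5721, chr14:24143365-24146610), which lies next to it, had 144.08, 117.34 and 145.44 FPKM against 181.43, 184.14 and 165.35 FPKM in control, 1.31-fold lower (log2 fold change -0.39, SE 0.089, limma adjusted p = 0.0132). In neither gene did the groups overlap. The call of PSME2 was lost without control replicate 2 (adjusted p = 0.0613), and that of PSME1 held without any 1 library. Of the 5 interferon-inducible members, these 2 were lower and the 3 immunoproteasome genes did not pass.

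The other activators did not pass. PSME3, which forms a nuclear activator ring of its own, had 109.0, 110.12 and 110.77 FPKM in the libraries labelled overexpression and 117.32, 111.78 and 110.53 FPKM in control (log2 fold change -0.04, 95% interval -0.17 to 0.08), and PSME4 had a log2 fold change of -0.11 (95% interval -0.31 to 0.09). PSMF1 (gene ID 9491, chr20:1113263-1172246), which encodes a protein known to inhibit the core particle in the test tube, was higher. It had 143.21, 163.5 and 150.96 FPKM against 122.07, 118.27 and 126.07 FPKM in control, with no overlap (means 153 ± 10.2 and 122 ± 3.9 FPKM, SD, n = 3 each, 1.25-fold, log2 fold change 0.32, SE 0.066, limma adjusted p = 0.0091). Its adjusted p was 0.0526 without control replicate 2 and 0.0784 when libraries were centred on the constitutive subunits. The rows matched by symbol only, PSMC3IP and PSME3IP1, had log2 fold changes of 0.03 and 0.01.

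**Figure D4:**
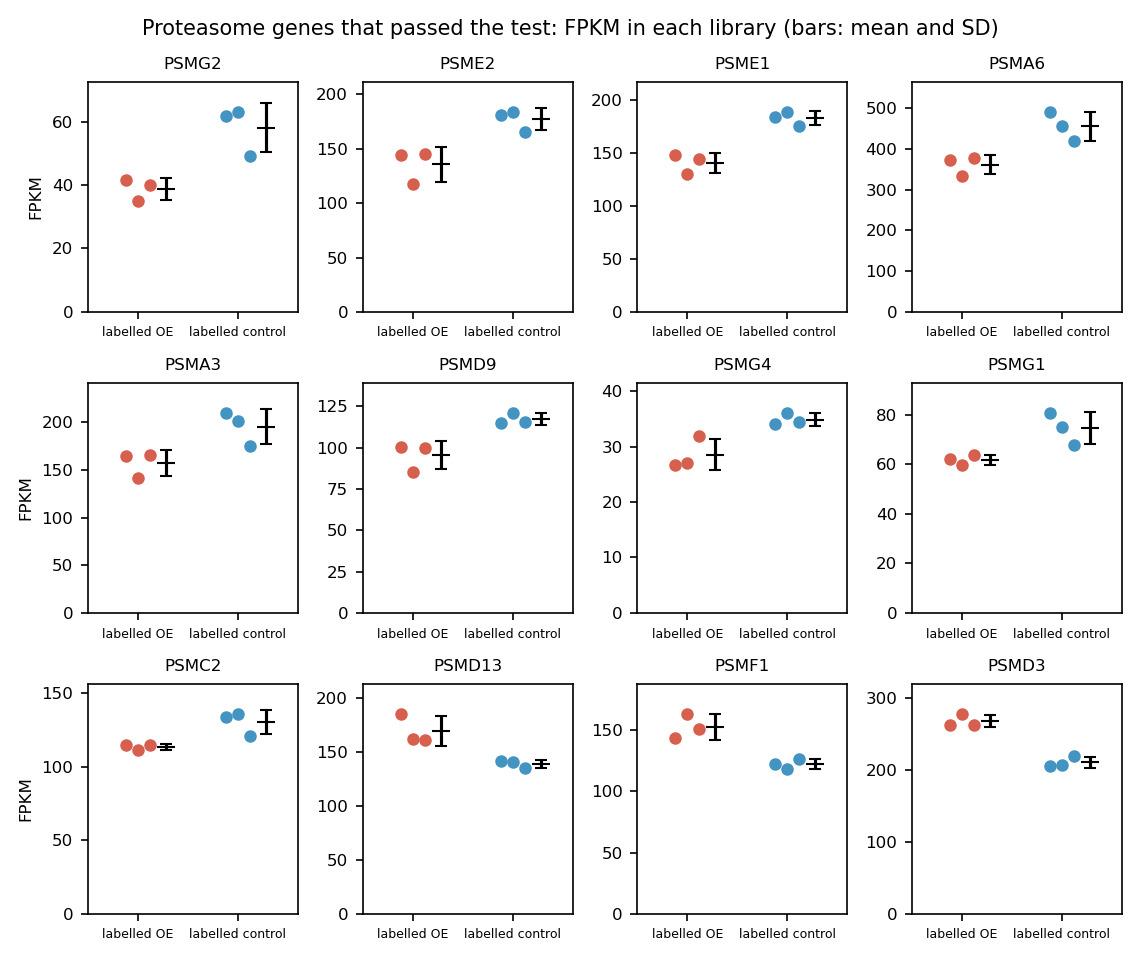
FPKM in each library (points) of the 12 proteasome genes that passed the test, with the mean and SD (bars), the libraries labelled overexpression (OE) on the left and those labelled control on the right of each panel, axes from 0. Replicate 2, the middle point on the left, is the lowest of its group in most panels of lower genes, and the groups do not overlap in any panel.

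The members moved together from library to library within each group. Replicate 2 of the libraries labelled overexpression was the lowest of its group in 38 of 48 members (79.2%, against 33.2% of all genes tested), and control replicate 3 was the lowest of its group also in 38 (79.2%, against 42.9%). The median member lay 0.07 (log2) below its group mean in each, beside 0.01 above and 0.01 below for all genes. Without both libraries, an alternative chosen after seeing the data, 6 members were higher and 12 lower. For this fit and those below that lack a library, the share of all genes that passed is not given. The counts therefore describe the calls only. In that fit 11 of the 12 calls above held, PSMG4 missed (adjusted p = 0.0649), and PSMA2, PSMA5, PSMB3, PSMB6, PSMB10, PSMD4 and PSMD5 passed as well. Leaving out control replicate 2 alone had the largest effect on the calls, with 1 higher (PSMD3) and 2 lower (PSMG2 and PSME1). Leaving out control replicate 3 alone gave 14 lower, the 9 above with PSMA2, PSMA4, PSMA5, PSMC6 and PSMD4. The part of these libraries in the results was not tested beyond that.

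The direction of a member went with that of the genes around it. All 7 members on chromosome 14 (PSMB5, PSME1, PSME2, PSMA6, PSMC6, PSMA3 and PSMC1) had log2 fold changes below 0, and 4 of them were lower. The other 412 tested genes of chromosome 14 had a median log2 fold change of -0.20, and 35.9% of them were lower and 1.7% higher. On chromosome 17, 7 of 8 members lay above 0 and 1 (PSMD3) was higher, where the other 747 genes had a median of 0.18 and 28.8% were higher. PSMG2 lies on chromosome 18, where the other 169 genes had a median of -0.21 and 36.7% were lower. Across the 48 members, the log2 fold change correlated with the median of the other genes within 5 Mb on either side (Pearson's r = 0.66, Spearman's rho = 0.63, a description across genes that share libraries and in part neighbours).

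**Figure D5:**
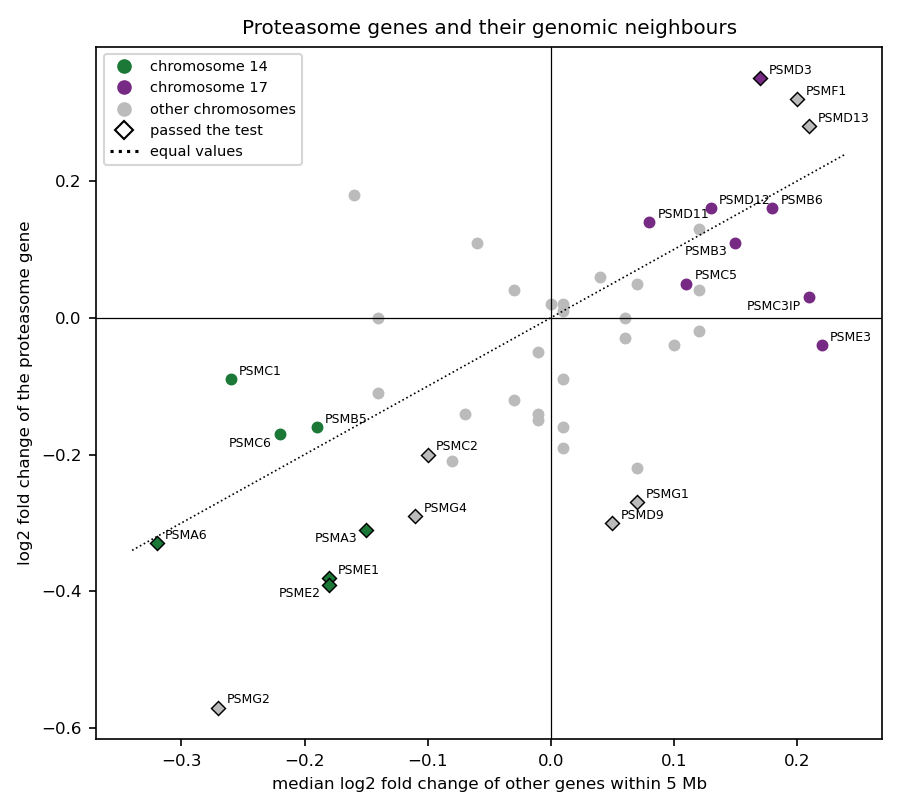
Log2 fold change of each tested member against the median log2 fold change of the other tested genes within 5 Mb (libraries labelled overexpression minus those labelled control in both), with chromosome 14 in green, chromosome 17 in purple, diamonds for members that passed, and a dotted line of equal values. The chromosome 14 members lie at the lower left and most chromosome 17 members at the upper right, while PSMG1 and PSMD9 lie below 0 where their neighbours lie above it.

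After the median shift of the neighbours was taken out of each library, 4 of the 12 calls held: PSMG2 (log2 fold change -0.34, limma adjusted p = 0.0399), PSMG1 (-0.32, 0.0216), PSMD9 (-0.33, 0.0319) and PSMD3 (0.19, 0.0298). The lost calls included both activator genes, PSME1 (-0.20, adjusted p = 0.0548) and PSME2 (-0.21, 0.121), and PSMA6 (-0.02, 0.865), whose own neighbours had a median of -0.32. A further 3 members passed in this fit: PSMC1 (0.20, adjusted p = 0.0463) and PSMD10 (0.37, 0.0202) as higher and PSME3 (-0.25, 0.0242) as lower. In that fit 7 members passed, 3 higher and 4 lower, where 17.5% of all genes passed. The cause of the regional shifts was not tested.

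Genes around the proteasome were taken from 4 lists. These were chosen with earlier results of these data known, so the share called in a list is a description only. Of 14 proteasome partners, 1 was higher (7.14%, beside 24.4% of all genes tested) and none lower. PITHD1, a proteasome-associated protein, had 71.58, 78.38 and 76.73 FPKM in the libraries labelled overexpression and 63.28, 59.64 and 62.93 FPKM in control (log2 fold change 0.29, limma adjusted p = 0.0118). POMP, the chaperone that matures the beta ring (-0.04, adjusted p = 0.764), ADRM1, a ubiquitin receptor (0.18, 0.0682), SEM1, a small lid subunit (-0.33, 0.0824), and the deubiquitinases UCHL5 (-0.09, 0.528) and USP14 (-0.13, 0.141) did not pass. Without control replicate 3, ADRM1 passed as higher (adjusted p = 0.0168) and SEM1 (0.027), UCHL5 (0.0328) and USP14 (0.0484) as lower, and SEM1 passed without overexpression replicate 1 too (0.0371). PITHD1 missed without control replicate 2 (0.0671) or overexpression replicate 3 (0.0513), and after removal of the neighbour shift (0.245).

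Of 8 genes of the NFE2L1 pathway, a list chosen with earlier results known, 3 were higher and 1 was lower (together 4 of 8, beside 24.4% of all genes tested). NFE2L1 had 263.19, 265.79 and 258.18 FPKM in the libraries labelled overexpression and 203.12, 218.99 and 240.0 FPKM in control (log2 fold change 0.25, limma adjusted p = 0.0268). VCP, the ATPase that extracts its product from the endoplasmic reticulum, was higher too (0.22, adjusted p = 0.0174), as was HCFC1 (0.52, 0.0136), and OGT, which glycosylates and pairs with HCFC1, was lower (-0.26, 0.0166). NFE2L1 lies on chromosome 17, and its log2 fold change was 0.04 (adjusted p = 0.689) after removal of the neighbour shift. It passed in only 1 of the 6 fits that each lacked 1 library, the one without control replicate 3 (0.0639 to 0.101 in the others). All 4 calls were lost without control replicate 2, VCP at 0.0671, HCFC1 at 0.0546 and OGT at 0.0619. VCP was also lost without control replicate 1 (0.0525) or overexpression replicate 3 (0.0662), and OGT without overexpression replicate 1 (0.0536) or 3 (0.0726) or control replicate 1 (0.0544).

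Of 18 genes of ubiquitin supply and shuttling, 4 were higher and 1 was lower, a share of 27.8% that is near the 24.4% of all genes tested. SQSTM1, a receptor that carries ubiquitinated cargo to autophagy, had 820.53, 868.78 and 841.97 FPKM in the libraries labelled overexpression and 559.17, 560.9 and 638.31 FPKM in control (log2 fold change 0.53, limma adjusted p = 0.00134). The others were UBA6, a ubiquitin-activating enzyme (0.33, adjusted p = 0.016), and the VCP cofactors NSFL1C (0.30, 0.00573) and NPLOC4 (0.25, 0.0219). RPS27A, which encodes ubiquitin fused to a ribosomal protein, was lower (-0.39, 0.0202), while the polyubiquitin gene UBB (0.15, adjusted p = 0.205) did not pass. With quantile scaling UBB passed as higher (0.00633). The calls of SQSTM1 and NSFL1C held without any 1 library. With the neighbour shift removed NSFL1C (adjusted p = 0.108), UBA6 (0.0602) and NPLOC4 (0.897, log2 fold change -0.01) did not pass. RPS27A missed without control replicate 1 (0.0732) or 2 (0.0798) and UBA6 without control replicate 2 (0.0507) or overexpression replicate 3 (0.0697), and NPLOC4 held only without control replicate 3 (0.0558 to 0.0976 in the others).

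Of 20 genes of MHC class I loading and its interferon control, 1 was higher and 8 were lower (45.0% in all, against 24.4% of all genes tested, 11.3% higher and 13.1% lower), with a median log2 fold change of -0.08. Since this list was chosen with earlier results of these data known, the share is a description only. B2M, the light chain of MHC class I, had 917.48, 863.95 and 896.58 FPKM in the libraries labelled overexpression and 1230.79, 1139.43 and 1044.13 FPKM in control (log2 fold change -0.35, limma adjusted p = 0.00992). IFNGR1 (-0.35, adjusted p = 0.00896) and IFNGR2 (-0.33, 0.015), the chains of the interferon gamma receptor, the peptide-trimming ERAP2 (-0.33, 0.0105) and HLA-C (-0.29, 0.0377) were lower, as were 3 other genes of the list. TAPBP, of the loading complex, was higher (0.33, adjusted p = 0.0352). The peptide transporter genes TAP1 (0.05) and TAP2 (-0.01) did not pass, and neither did PSMB8 and PSMB9, which lie beside them on chromosome 6. B2M no longer passed once the joint trend on GC content, length and expression was removed (log2 fold change -0.10, adjusted p = 0.241). IFNGR2 missed without control replicate 2 (0.0553), TAPBP without overexpression replicate 2 (0.114) or 3 (0.0896) or control replicate 1 (0.112) or 2 (0.11), and HLA-C without overexpression replicate 1 (0.0828) or 2 (0.114) or control replicate 2 (0.0817) or 3 (0.0568).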

How the data were processed

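Both groups were poly(A)-selected, strand-specific RNA-seq libraries. The authors aligned reads to GRCh38 with HISAT2, kept uniquely mapped reads and deposited FPKM values, which scale for transcript length and library size. Members with near-identical pseudogene copies are therefore uncertain. The annotation and counting tool are not given in the sources used here. The paper also reports a correction for known batches with ComBat_seq. No label names a batch, and whether the deposited FPKM values carry that correction is not stated. The study lists reads per library by medium, and since the labels do not give the medium, those totals could not be tied to these libraries. Depth could not be recovered from the values either: at the best fitting depth, 50.0% to 56.0% of low values lay within 0.15 of a whole fragment (30.0% by chance), so no counting interval is given.

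The 12461 genes whose FPKM averaged 1 or more were tested as log2(FPKM + 0.1), which understates changes of low genes, by a two-sided limma 3.58.1 test (R 4.3.3, eBayes with trend). Benjamini-Hochberg adjustment covered every gene tested. This replaced the count test used in the study. Plots were made in Python 3.11.15 (matplotlib 3.10.9). Identifiers and coordinates came from RefSeq (GRCh38.p14), which matched 20164 of 20442 rows and all 50 members. Named in full were members past an adjusted p of 0.05, the catalytic subunits, activators, PSMF1 and PSMG1 to PSMG4, and from each related list up to 6 genes past that threshold, beside NFE2L1, POMP, ADRM1, SEM1, USP14 and UCHL5. Other genes named (PSMA7, PSMD4, PSMD5, PSMD10, PSMD14, PAAF1, UBB, TAP1 and TAP2) were chosen with their values known. The related lists were chosen with earlier results of these data known, while the symbol rule for the members used no measured value. Alternatives were pseudocounts of 1 and 0.01, no filter or one at 5 FPKM, scaling by TPM, by quantiles or by median of ratios, robust or untrended limma, a replicate block, leaving out each library, and removal of a GC, length and expression trend or of the shift of neighbouring genes. Leaving out a pair of libraries and centring on constitutive subunits were added after seeing the data.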

Additional observations from a re-analysis of the deposited data

How the results depend on the processing

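The 3 higher and 9 lower members became 5 higher with quantile scaling, 12 higher after removal of the GC, length and expression trend (median log2 fold change 0.012, against -0.039 as reported), 6 higher without overexpression replicate 2 and control replicate 3, and 1 higher when centred on the constitutive subunits, while 4 were lower with limma without trend and 4 after removal of the neighbour shift. Leaving out 1 library gave 1 to 4 higher and 2 to 14 lower, with medians of -0.092 to -0.012. The fewest came without control replicate 2 and the most lower calls, 14, without control replicate 3. Apart from the neighbour fit, where 17.5% of all genes passed, the share of all genes is not given for these alternatives. Their counts are no result about the family. HNRNPF stayed lower throughout (log2 fold change -0.57 to -0.83). Replicate numbers were shared by the titles only: the correlation of deviations between libraries with the same number was 0.09, -0.09 and 0.01, 2 of 6 libraries correlated best with their own number, and the replicate block also gave 3 higher and 9 lower (PSMG3 gained, PSMC2 lost). Signs of small differences turned as follows. With the trend removed the log2 fold change was 0.029 for PSMB4, 0.16 for PSMD14 (limma adjusted p = 0.0152), 0.059 for PSMA2, 0.067 for PSMB7, 0.074 for PSMD7, 0.048 for PSMA7, 0.17 for POMP (0.0214), 0.011 for SEM1 and 0.024 for UCHL5. With neighbours removed it was 0.0059 for PSME4, 0.17 for PSMD14, -0.004 for PSMD1, -0.0051 for PSMB1, -0.086 for PSMC3, 0.025 for PSMB5, 0.041 for PSMC6, 0.20 for PSMC1 (0.0463), -0.026 for PSME3IP1, -0.023 for PSMB6, -0.037 for PSMB3, -0.18 for PSMC3IP, -0.04 for PSMC5, -0.041 for PSMD8, 0.036 for POMP, 0.16 for USP14 and -0.012 for NPLOC4. Scaling turned PSMD14 (TPM 0.035, median of ratios 0.012, quantile 0.052), PSMC4 (0.032, 0.0088 and 0.04), PSMB7 (TPM 0.00092, quantile 0.045), PSMA7 (0.014 and 0.035) and PSMB4 (quantile 0.017), and centring turned PSMB2 (-0.027), PSMD1 (-0.027), PSMD6 (-0.0069), PSMC3 (-0.0066), PSME3IP1 (-0.041) and PSMC3IP (-0.02). With libraries left out the values ran from -0.06 to 0.069 for PSMB2, -0.093 to 0.011 for PSMB4, -0.093 to 0.078 for PSMD14, -0.1 to 0.054 for PSMB7, -0.013 to 0.058 for PSMD1, -0.031 to 0.089 for PSMD6, -0.0082 to 0.13 for PSMB1, -0.076 to 0.057 for PSME3IP1, -0.026 to 0.057 for PSMC3IP, -0.034 to 0.066 for PSMC4, -0.066 to 0.04 for PSMA7 and -0.11 to 0.025 for POMP. Over the 48 tested members and 20 alternatives, 814 values kept direction and call, 51 lost the call, 34 gained it in the same direction and 61 turned. For HNRNPF together with the related genes that the naming rule picked, most of them because they had passed, these were 367, 55, 10 and 8. The other related genes were not counted. The causes were not tested. With 3 libraries a group, changes of 0.2 on the log2 scale lay at the limit of the test.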
